A study of Mus musculus with 6 samples.

Results

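Activins, inhibins and bone morphogenetic proteins (BMPs) are secreted dimers of the TGF-beta superfamily, and 10 genes of this signalling system are described here in mouse fetal testes of E13.5 with and without the transcription factor Dmrt1. The genes were the subunits Inha, Inhba and Inhbb, the ligand Bmp4, the receptors Acvr2a, Acvr2b and Bmpr1a, and the intracellular mediators Smad3, Smad4 and Smad7. Every probe set of the array that the platform annotation assigns to 1 of these symbols alone was taken, which gave 25 of 45101 probe sets. Of the 25, 17 had a mean log2 intensity of at least 4 over the 6 arrays and were tested, and each of the 10 genes had at least 1 tested probe set. The other 8 lay near background and are given as levels only.

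Each array was hybridised with RNA of a whole testis sample of 1 biological replicate, so the values are averages over all cells of the gonad. There were 3 control and 3 null arrays, all from E13.5 and all outcrossed to 129S6/SvEvTac. The controls are wild type by their titles but Dmrt1(+/-) by their descriptions, genotype entries and the series design, and are called control here. The null samples are Dmrt1(-/-) by title and description, whereas their genotype entry reads Dmrt(flox/flox), and the labels name no Cre driver. Control replicate 3 and null replicate 2 carry the same leading animal number, whose meaning the labels do not state. Intensities given as 3 values per group follow the order of replicates 1, 2 and 3. With bulk tissue, fewer cells of a type and less RNA per cell cannot be told apart.

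Inhibin consists of an alpha subunit, encoded by Inha, joined to a beta subunit, encoded by Inhba or Inhbb. Activin consists of beta subunits alone, and binds the type II receptors ACVR2A and ACVR2B, after which a type I receptor phosphorylates SMAD2 and SMAD3. BMP4 signals through BMPR1A and related type I receptors to SMAD1, SMAD5 and SMAD9. SMAD4 joins both branches and SMAD7 dampens them. In the fetal mouse testis, fetal Leydig cells are a known source of activin A, the dimer of the Inhba product, which acts on Sertoli cell proliferation. Inhbb is known from Sertoli cells, and BMP4 is known for its part in the formation of germ cells in the early embryo.

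The deleted gene followed the labels. Dmrt1 read 696, 1030 and 796 in the controls and 48.4, 26.9 and 23.8 in the nulls, a log2 difference of -4.72 (standard error 0.28, limma adjusted p = 0.00388). Without control replicate 3 that adjusted p was 0.0558. The position of the probe set relative to the deleted part is unknown here. Most Sertoli and germ cell markers passed the filter, among them Sox9 (mean intensities of 594 in controls and 462 in nulls), Ptgds (4700 and 4740) and Dazl (3360 and 2960). Of the 9 Sertoli markers, Erbb4 lay below the filter and Sox8 was dim, at 19.1 to 42.1, and of the 8 germ cell markers, Nanos3 had no probe set of its own.

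None of the 10 genes passed the test for a difference between control and null testes, and each brightest probe set had overlapping groups. With limma and Benjamini-Hochberg adjustment over 22082 tested probe sets, 0 of the 17 member probe sets were called at an adjusted p of 0.05, where 0.0272% of all tested probe sets were called, all of them lower in the null. The adjusted p of the 17 ranged from 0.773 to 0.992. At an unadjusted p under 0.05, 1 of the 17 passed, lower in the null, and 6.04% of all tested probe sets did, 3.28% lower and 2.75% higher. Control and null values did not overlap at 2 of the 17, both lower in the null, against 12.8% of all tested probe sets, with 6.06% lower and 6.73% higher. The null mean was lower at 13 of 17 probe sets, with a median difference of -0.09 on the log2 scale (null minus control), beside 48.1% lower and a median of 0.01 over all tested probe sets. Counted once per gene by its brightest probe set, 6 genes were lower and 4 higher, with a median of -0.01. Several probe sets of 1 gene read the same transcript and are not independent.

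**Figure D1:**
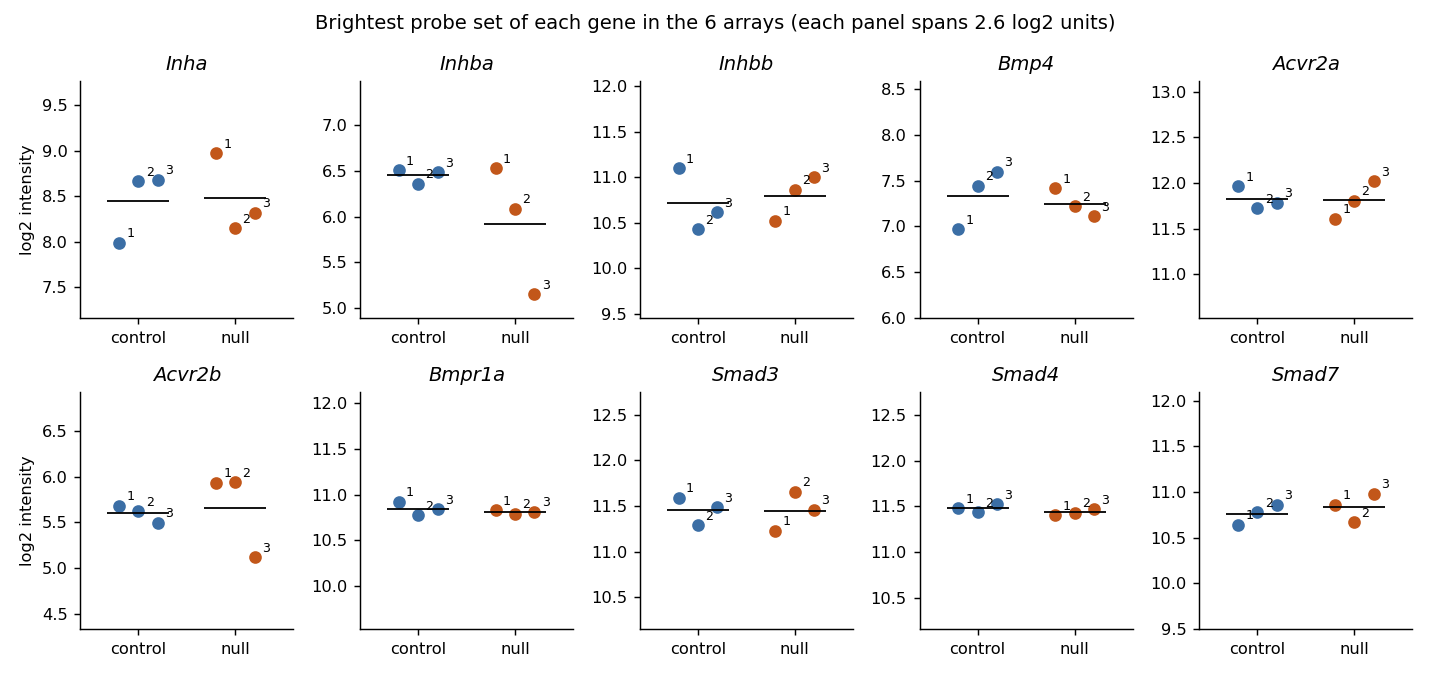
Log2 intensity of the brightest probe set of each of the 10 genes in the 3 control and 3 null arrays. Points carry the replicate number, lines are group means, and every panel spans the same log2 distance. The groups overlap in all 10 panels, and the low point of Inhba is null replicate 3 at an intensity of 35.5.

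The alpha subunit gene Inha varied widely inside both groups. Its single probe set read 254, 405 and 411 in the controls and 503, 284 and 319 in the nulls. The lowest and the highest array were thus a control and a null, 1.98-fold apart, and the groups overlapped. The mean was 357 ± 89.0 in controls and 369 ± 118 in nulls (SD, n = 3 each). The log2 difference was 0.04 (standard error 0.26, 95% confidence interval -0.57 to 0.64, limma adjusted p = 0.985). That interval allows a level in the null from 0.673 to 1.56 times that of the control. The sign depended on single arrays, since leaving out control replicate 1 gave -0.19 and leaving out null replicate 1 gave -0.21.

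Inhbb, which encodes the betaB subunit, ran the other way over the arrays. Its intensities were 2190, 1380 and 1570 in the controls and 1470, 1860 and 2050 in the nulls. Control replicate 1, where Inha was lowest, had the highest Inhbb value, and the groups overlapped. The log2 difference was 0.08 (standard error 0.19, 95% confidence interval -0.35 to 0.51, limma adjusted p = 0.933). Its sign too rested on single arrays, since leaving out control replicate 2 gave -0.06 and leaving out null replicate 3 gave -0.02. A further Inhbb probe set stayed between 9.95 and 12.3 in all 6 arrays, below the filter.

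Over the 6 arrays the log2 levels of Inha and Inhbb had a Pearson r of -0.88 and a Spearman rho of -0.77, given as a description without a test. Without control replicate 1 and null replicate 1, the arrays farthest from the median of Inha, r was -0.83 over the other 4. Because these 2 subunit genes went opposite ways from array to array, the 250 bases before their RefSeq start sites are shown (build GRCm38.p6). Inha lies on the plus strand, with this window at chr1:75507359-75507608, and Inhbb on the minus strand, with its window at chr1:119422249-119422498. Each is written 5′ to 3′ on the gene's strand, and capitals mark the letters AGGTCA, a half-site of nuclear receptors.
Inha: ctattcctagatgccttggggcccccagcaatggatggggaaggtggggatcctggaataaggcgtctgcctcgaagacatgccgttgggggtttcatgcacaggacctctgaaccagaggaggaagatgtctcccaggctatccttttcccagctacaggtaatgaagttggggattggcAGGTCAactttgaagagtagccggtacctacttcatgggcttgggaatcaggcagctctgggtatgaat
Inhbb: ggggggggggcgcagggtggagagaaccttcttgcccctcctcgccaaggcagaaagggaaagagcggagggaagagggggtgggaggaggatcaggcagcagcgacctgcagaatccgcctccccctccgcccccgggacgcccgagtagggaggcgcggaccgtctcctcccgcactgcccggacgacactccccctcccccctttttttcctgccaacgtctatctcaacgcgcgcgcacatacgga
The search covered both strands, for AGGTCA and for ACANTGT, the core letters of sites bound by DM domain factors such as DMRT1. AGGTCA occurs in the Inha window, where its first base lies 69 bases before the start, and not in the Inhbb window. It occurs in 14.0% of 32536 distinct windows of this length over all RefSeq genes. ACANTGT occurs in neither window, and in 6.29% of all windows. RefSeq windows were found for 8 of the 10 genes, and in the other 6 of those 8 neither motif occurs. A match or its lack in this stretch says nothing about binding.

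Inhba, which encodes the betaA subunit, showed the widest differences between arrays of the 10 genes. Its intensities were 90.9, 82.3 and 89.6 in the controls and 92.4, 68.0 and 35.5 in the nulls. The controls lay close together at 87.6 ± 4.64, whereas the nulls spread over 65.3 ± 28.5 (SD, n = 3 each), with null replicate 1 above every control. The log2 difference of -0.53 was the largest in size of the 17 tested (standard error 0.32, 95% confidence interval -1.26 to 0.21, limma adjusted p = 0.778). Leaving out null replicate 3 gave -0.14, and leaving out null replicate 1 gave -0.83. Null replicate 3 had the highest 3′ to 5′ ratio of Actb, read by control probe sets of the array, 2.75 against 1.91 to 2.15 in the other 5 arrays. It also had the lowest level of the fetal Leydig markers, at -1.32 on the log2 scale relative to the mean of the 6 arrays. Neither followed Inhba in every array. Null replicate 2, the next lowest in Inhba, had the lowest Actb ratio. Control replicate 1, at 90.9 in Inhba, had a low Leydig level, at -0.67. The Pearson r of Inhba to the Leydig level was 0.74 over the 6 arrays and -0.18 without null replicates 2 and 3. In the arrays left, Inhba ran only from 82.3 to 92.4, so that second r cannot show whether Inhba follows the Leydig level. The part of either in the Inhba value was not tested. The other Inhba probe set, near background, lay between 3.33 and 4.81.

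The ligand gene Bmp4 did not separate the groups. Its intensities were 125, 174 and 194 in the controls and 171, 149 and 138 in the nulls. All 3 null values lay inside the range of the controls. The log2 difference was -0.09 (standard error 0.19, 95% confidence interval -0.53 to 0.36, limma adjusted p = 0.930), and 0.04 without control replicate 3.

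Among the receptors, Acvr2a and Acvr2b encode the type II receptors of activin. The bright Acvr2a probe set gave 4000, 3380 and 3530 in the controls and 3120, 3580 and 4150 in the nulls. Its lowest and highest arrays were both null, and the log2 difference was -0.01 (standard error 0.11, 95% confidence interval -0.27 to 0.24). A dimmer Acvr2a probe set had a difference of -0.20, with controls between 67.0 and 74.6 and nulls of 50.7, 68.9 and 68.7. Null replicate 1 was the low array there, and without it the difference of this dimmer probe set was -0.06.

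The tested Acvr2b probe set had intensities of 51.4, 49.4 and 45.2 in the controls and 61.2, 61.4 and 34.7 in the nulls. Here 2 nulls lay above every control and null replicate 3 lay below every control, the array in which Inhba was lowest too. The log2 difference was 0.06 (standard error 0.24, 95% confidence interval -0.49 to 0.61, limma adjusted p = 0.967). Leaving out 1 null array moved it from -0.077 without null replicate 2 to 0.34 without null replicate 3. The other 2 Acvr2b probe sets lay below the filter, between 5.68 and 14.6.

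Bmpr1a, the type I receptor for BMP4, had 6 probe sets, and 4 of them were tested. Probe set 1425493_at held the smallest unadjusted p of the 17, 0.0207 by limma, with an adjusted p of 0.773. Its intensities were 1830, 1790 and 1620 in the controls and 1480, 1560 and 1380 in the nulls. Every null lay below every control, by a narrow margin between 1620 and 1560. The log2 difference was -0.25 (standard error 0.09, 95% confidence interval -0.44 to -0.05), or 1.19-fold lower, and it ran from -0.30 to -0.20 with each array left out in turn. Between the 2 arrays that share an animal number, null replicate 2 and control replicate 3, this difference was -0.05.

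The other Bmpr1a probe sets did not all repeat that separation. Probe set 1425491_at also had groups without overlap, at 157, 170 and 147 in the controls against 130, 140 and 126 in the nulls, with a difference of -0.26 (limma adjusted p = 0.773). The brightest, 1425492_at, had a difference of -0.03 with a 95% confidence interval of -0.20 to 0.13, and overlapping groups. Probe set 1425494_s_at had one of -0.15 and overlapping groups. The annotation gives all 4 the same source sequence, so they are repeated readings of 1 transcript rather than separate evidence. The mean over the 4 differed by -0.17 (limma adjusted p = 0.707). Of the 2 untested, 1451729_at lay between 11.7 and 14.4, and 1445413_at between 5.01 and 8.22 with its nulls higher on average.

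**Figure D2:**
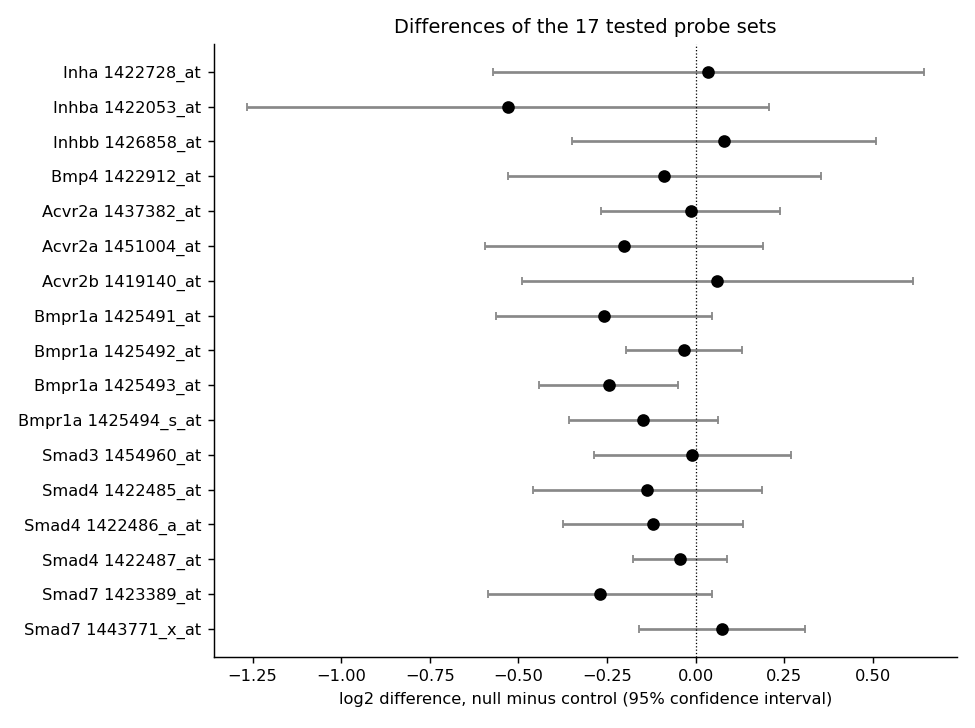
Log2 difference of null minus control for the 17 tested probe sets, with limma 95% confidence intervals from 3 arrays per group. All intervals but that of Bmpr1a 1425493_at include 0, and the widest belongs to Inhba, from -1.26 to 0.21.

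The tested probe sets of the SMAD genes all had overlapping groups, and none was called. Smad3, which carries the activin signal, had intensities of 3090, 2510 and 2870 in the controls and 2400, 3230 and 2820 in the nulls. The lowest and the highest array were both null. The log2 difference was -0.01 with a 95% confidence interval of -0.29 to 0.27 (limma adjusted p = 0.992), and its sign changed without control replicate 1, control replicate 3 or null replicate 1, at 0.06, 0.01 and 0.10. The 2 other Smad3 probe sets lay below the filter, and the value of 23.4 in control replicate 1 stood apart there from 13.3 to 15.9 in the other 5 arrays.

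Smad4, the shared partner of the receptor-activated SMADs, was read by 3 tested probe sets. The brightest gave 2850, 2770 and 2940 in the controls and 2710, 2760 and 2830 in the nulls. These 6 arrays lay within 1.08-fold of each other, the tightest of the member probe sets. The difference was -0.04 with a 95% confidence interval of -0.18 to 0.09, which allows a null level from 0.885 to 1.06 times the control. The other 2 Smad4 probe sets had differences of -0.12 and -0.14, each with overlapping groups.

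Smad7, the inhibitory SMAD that is itself induced by the pathway, was read by 2 probe sets that pointed in different directions. Probe set 1423389_at gave 751, 921 and 847 in the controls and 742, 769 and 586 in the nulls. Its difference was -0.27 (standard error 0.14, 95% confidence interval -0.59 to 0.05, limma adjusted p = 0.773), and null replicate 3 was again the lowest array. Probe set 1443771_x_at gave 1600, 1760 and 1860 in the controls and 1860, 1630 and 2020 in the nulls. There the difference was 0.08 and null replicate 3 was the highest. The suffix x marks a probe set that can bind other transcripts, and neither probe set was called.

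In several of these genes the arrays of 1 group lay farther apart than the group means, and genes shared that pattern. Relative to the mean of the 6 arrays, Inha stood at -0.47, 0.20 and 0.22 in the controls and at 0.51, -0.31 and -0.15 in the nulls on the log2 scale. The median level of 5 fetal Leydig markers, the steroidogenic genes Cyp11a1, Cyp17a1, Hsd3b1 and Star with the electron donor gene Fdx1, stood at -0.67, 0.74 and 0.69 in those controls and at 1.07, -0.58 and -1.32 in those nulls. Both were thus low in control replicate 1 and null replicates 2 and 3, and high in the other 3 arrays.

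The summed intensity of the 5 Leydig markers ran from 4557 to 11317 in controls and from 3685 to 14590 in nulls. All 5 had a lower mean log2 level in the null, with a median difference of -0.43. The groups overlapped at each of the 5, and none was called. Insl3 and Lhcgr, the other 2 genes of that list, had no probe set of their own. Bmp4 followed the same order in part, with a Pearson r of 0.84 to the Leydig level, beside 0.85 for Inha (n = 6 arrays each). Without the 2 arrays farthest from each gene's median, these were 0.98 for Bmp4 and 0.84 for Inha. The Leydig list was not the closest to Inha. Its r was 0.95 to the level of the tested granulosa markers, Wnt4 and Rspo1, and 0.90 to Cyp21a1, the 1 tested adrenal cortex marker. Wnt4 and Rspo1 did not run together, since in control replicate 1 Wnt4 was highest, at 473, and Rspo1 lowest, at 113. Their joint level mostly reflects Rspo1, with an SD over the arrays of 0.67 on the log2 scale against 0.18 for Wnt4.

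Inhbb and Acvr2a ran against the Leydig level, with a Pearson r of -0.91 for each. Against the germ cell level they stood at -0.92 and -0.70, in that order. Against the granulosa level they stood at -0.79 and -0.80, and against Cyp21a1 at -0.81 and -0.87. They ran with the erythroid markers, at 0.92 for Inhbb and 0.71 for Acvr2a, and with the endothelial markers, at 0.82 and 0.75. Smad3 had an r of -0.93 to the granulosa level, which mostly reflects Rspo1, and of -0.89 to Cyp21a1. Its r was 0.82 to the endothelial level, 0.76 to the erythroid level, -0.79 to the germ cell level and -0.69 to the Leydig level. To the Sertoli level it was 0.62. By Spearman rho the order differed, with 0.89 to the Sertoli level and 0.43 to the endothelial level. These correlations share the same 6 arrays and their normalization, were computed for 10 genes against 10 marker lists and against each other, and are descriptions without a test. The summed intensity of the 6 tested endothelial markers ran from 938 to 2619 in controls and from 1300 to 2468 in nulls, and that of the 4 tested erythroid markers from 10754 to 18703 and from 13323 to 17717. Erg among the endothelial markers lay below the filter. Whether the cell makeup of the samples accounts for any of these levels was not tested.

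**Figure D3:**
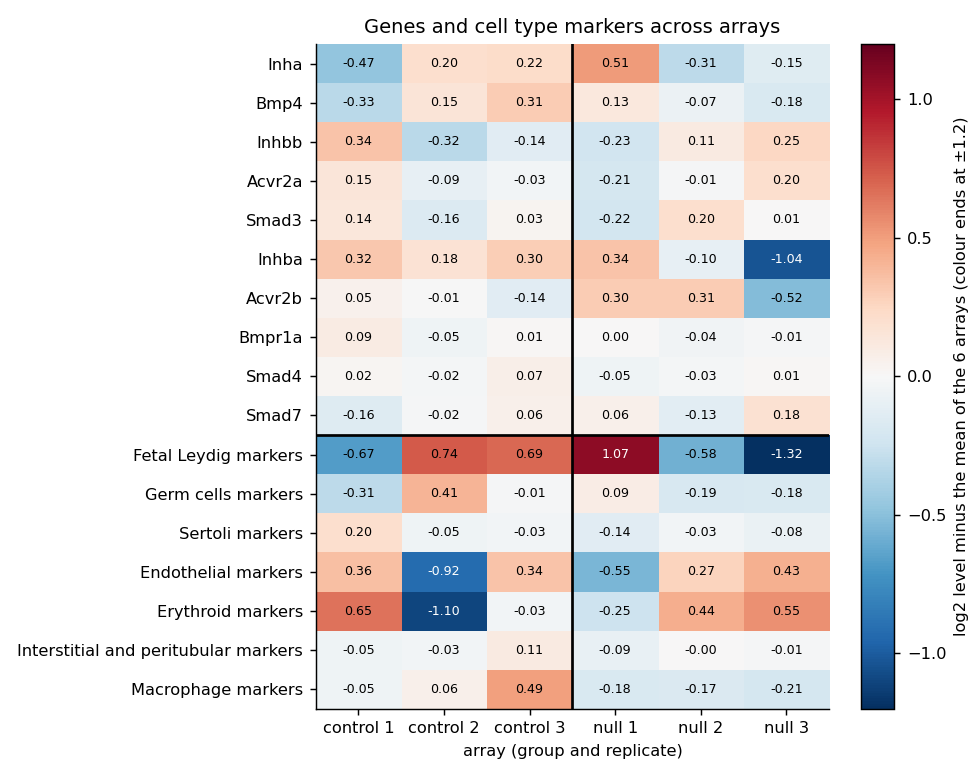
Log2 level of the brightest probe set of each gene, and median level of 7 marker lists, in each array relative to the mean of the 6 arrays. Inha and the fetal Leydig markers are both low in control replicate 1 and null replicates 2 and 3, and Inhbb is high in those 3 arrays.

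Sertoli markers varied less, with median levels between -0.14 and 0.20 in the 6 arrays and 4 of 8 tested markers lower in the null. Their summed intensity was 14648 to 15654 in controls and 11418 to 12060 in nulls. That sum includes Cst9, which was called lower and had means of 3150 and 1060. It also includes Aard, which had means of 5770 and 4290 without overlap and was not called (limma adjusted p = 0.474). Interstitial and peritubular markers summed to 18682 to 19658 in controls and 18205 to 18753 in nulls, and germ cell markers to 9409 to 15438 and 9524 to 12087. Macrophage markers had a lower null mean at 6 of 6 members, with sums of 1063 to 1569 and 876 to 968. None of the 6 was called, and only Adgre1 and Mrc1 had groups without overlap. Mrc1, the brightest, had means of 767 and 520, and Tyrobp differed by only -0.0089 on the log2 scale. Of the 3 granulosa markers, Foxl2 lay below the filter, whereas Wnt4 had means of 401 in controls and 406 in nulls, and Rspo1 ranged from 113 to 401 over the arrays. Of the adrenal cortex markers, Cyp11b1 lay below the filter and Cyp21a1 read 13.9 to 28.9. None of the 3 tested was called. The tested mesonephros and coelomic epithelium markers summed to 4086 to 5918 in controls and 3867 to 5584 in nulls.

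The rest of the pathway was examined as a list of 76 further genes of the superfamily, by role. Of these, 56 had a tested probe set, 25 with a higher and 31 with a lower null mean, and 0 were called by limma over all probe sets. Their median difference was -0.03, beside 0.01 over all tested probe sets. At an unadjusted p under 0.05, 4 of 56 passed, 3 lower and 1 higher, against 6.04% of all tested. By the brightest probe set of each gene, the groups did not overlap at 3 of 56, all lower, against 12.8% of all tested.

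The other 9 tested ligand genes had differences between -0.28 and 0.28 by their brightest probe sets. Bmp2 had the lowest, at -0.28, and Bmp7 the highest, at 0.28. A second tested Bmp7 probe set had groups without overlap, higher in the null by 0.42 (limma adjusted p = 0.773), and the last of its tested probe sets stood at -0.04. Tgfb1 stood at -0.13. Of the beta subunits of other activins, Inhbc and Inhbe lay below the filter.

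Secreted antagonists included follistatin, encoded by Fst, which binds activin and keeps it from its receptors. Fst intensities were 574, 853 and 518 in the controls and 578, 358 and 364 in the nulls. Null replicates 2 and 3 lay below every control, whereas null replicate 1 lay among them. The difference was -0.58 (standard error 0.24, unadjusted p = 0.0439, limma adjusted p = 0.773), and it ran from -0.81 to -0.37 with each array left out in turn. Twsg1, which binds BMPs, had values of 3910, 3770 and 4020 in the controls and 3370, 3610 and 3370 in the nulls. These groups did not overlap, and the Twsg1 difference of -0.18 had an unadjusted p of 0.0135 (limma adjusted p = 0.773). The suffix s of this probe set marks possible binding to related transcripts. A second, dim Twsg1 probe set had a difference of -0.45, also without overlap (limma adjusted p = 0.773). Fstl1, a follistatin-like gene, stood at -0.09.

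Of the type I receptors of the list, 6 of 6 were tested, 5 with a lower null mean. By their brightest probe sets, Acvr1 stood at -0.19, Tgfbr1 at -0.06 and Acvr1c at 0.30. A dimmer tested probe set stood at -0.56 for Tgfbr1 and at -0.09 for Acvr1. Acvr1c ranged from 27.1 to 84.0 within the nulls, and its difference was -0.08 without null replicate 3. Type II receptors and co-receptors were all 8 tested. Amhr2, the receptor of anti-Müllerian hormone, stood at 0.34, and its 2 other tested probe sets at 0.43 and 0.30. At the last of these the groups did not overlap, with every null higher, at an unadjusted p of 0.0384 (limma adjusted p = 0.773). This probe set and the brightest carry the suffix x, which marks a probe set that can bind other transcripts. The brightest had 498, 643 and 656 in the controls against 932, 656 and 702 in the nulls, where the lowest null equals the highest control. Rgmb, a co-receptor of BMPs, stood at -0.32 with groups that did not overlap (its lowest control was 193 and its highest null 190), and Bmpr2, the BMP type II receptor, at -0.13, each with a limma adjusted p of 0.773. The 3 other tested Rgmb probe sets stood at -0.83, -0.23 and -0.09. At -0.83 and -0.23 every null lay below every control (limma adjusted p of 0.773 and 0.788), and at -0.09 the groups overlapped.

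SMADs and their cofactors had 16 of 17 genes tested, 11 with a lower null mean. Apart from Foxh1 they lay between -0.17 and 0.07 by the brightest probe set of each gene. Their other tested probe sets ran from -0.67 for Smad5 to 0.18 for Pmepa1. Ski, a repressor of SMAD transcription, had 2620, 2580 and 2600 in the controls and 2470, 2360 and 2110 in the nulls, without overlap. Its difference was -0.17 (unadjusted p = 0.0494, limma adjusted p = 0.773), and its relative Skil stood at -0.11. Foxh1, a partner of SMAD2 and SMAD3 in Nodal and activin responses, had 68.7, 23.3 and 29.7 in the controls and 47.8, 79.6 and 128 in the nulls. Control replicate 1 lay above null replicate 1, so the groups overlapped. The Foxh1 difference of 1.12 (standard error 0.46) had an unadjusted p of 0.0428 (limma adjusted p = 0.773), and it ran from 0.77 to 1.58 with each array left out in turn.

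Target genes of the pathway were 10 in the list. Of 9 tested, 7 had a higher and 2 a lower null mean, with a median difference of 0.17 and no groups without overlap. Ccn2 stood at 0.28, Hey1 at 0.19 and Id4 at -0.50, with limma adjusted p from 0.774 to 0.792. Id4, an inhibitor of helix-loop-helix factors, had intensities of 803, 1340 and 967 in the controls and 1020, 701 and 512 in the nulls. Its other tested probe sets stood at -0.65 and -0.25. Msx2 had the lowest difference of the targets, -0.74, with a standard error of 0.90. The BMP targets Id1, Id2 and Id3 stood at 0.17, 0.07 and 0.08 by their brightest probe sets, and a second tested Id2 probe set at -0.07.

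**Figure D4:**
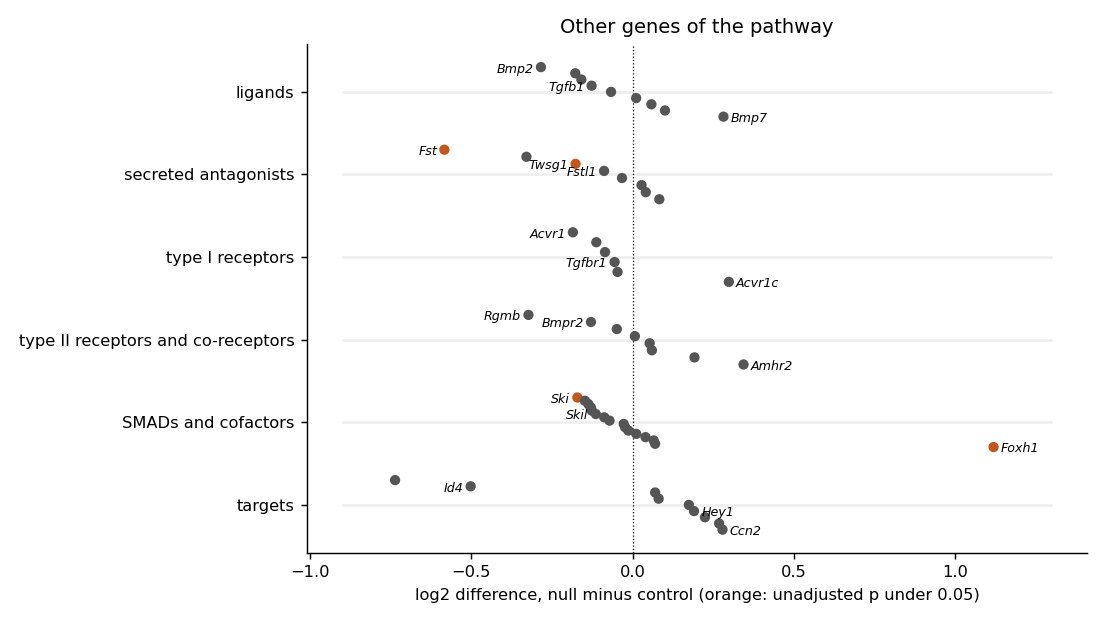
Log2 difference of null minus control for the 56 tested genes of the wider pathway, 1 point per gene from its brightest probe set, arranged by role, with the 3 genes of smallest p in each role named. Most points lie near 0, and the 4 in orange, Fst, Twsg1, Ski and Foxh1, passed an unadjusted p of 0.05 but not the adjusted test.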

How the data were processed

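RNA of E13.5 mouse testes was amplified, labelled with biotin and measured on 6 oligonucleotide arrays, 3 per group by sample title. The authors deposited intensities on a linear scale, made with GCRMA per the submitters' processing notes (version not given in the sources used here), which corrects background, normalizes arrays and summarises probe sets. Array medians were 14.6 to 14.8. These were log2 transformed without a pseudocount, and 22082 of 45101 probe sets with a mean of at least 4 entered a limma model (version 3.58.1, R 4.3.3) of group alone, with trended eBayes and p-values adjusted by Benjamini-Hochberg across the whole set. Tests were two-sided with 4 residual degrees of freedom (7.91 with the prior), and 3 arrays per group limit the precision. The fit was tested on simulated data. Where a gene had several probe sets, the brightest stood for it in lists and each was fitted separately.

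The 10 genes, the lists and the tests were chosen with earlier results of these data known. Named were all probe sets of the 10 genes, the 3 pathway genes of smallest p in each role, and the 5 genes most like each of the 3 most variable members. Others named, such as Id1, Id2, Id3 and the marker genes, were picked as examples. The comparison of dimmer and brightest probe sets was added after seeing the data. Alternatives were no filter, a filter at 6, quantile normalization, median centring, 16 added, eBayes without trend or robust, array weights, a replicate block, leaving out single arrays with the same probe sets kept, 1 test or a mean per gene, a threshold of 0.10, and the difference of the 2 arrays sharing an animal number.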

Additional observations from a re-analysis of the deposited data

How the results depend on the processing

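No probe set of the 10 genes and no pathway gene was called under any alternative run, and the lowest limma adjusted p of a member was 0.504. Of 298 member values under alternatives, 280 kept their sign and 18 changed it. These counts include settings that leave the difference itself unchanged, so its sign could not change there. They were no filter, a filter at 6, eBayes without trend or robust, the replicate block, 1 test per gene and the threshold of 0.10. The single difference between the 2 arrays sharing an animal number, a value with no test, changed sign for 6 of 17 probe sets. It was -0.53 for Inha, 0.020 and 0.040 for the 2 tested Acvr2a probe sets, 0.17 for Smad3, 0.11 for Smad4 1422486_a_at and -0.19 for Smad7 1443771_x_at. With array weights the sign changed for Inha (-0.21), Acvr2a (0.028), Smad3 (0.023) and Smad7 1443771_x_at (-0.014), and with the mean over probe sets Smad7 stood at -0.097. With single arrays left out, differences ran from -0.21 to 0.20 for Inha, -0.062 to 0.27 for Inhbb, -0.27 to 0.044 for Bmp4, -0.12 to 0.088 for Acvr2a and -0.077 to 0.34 for Acvr2b. They ran from -0.069 to 0.0056 for Bmpr1a 1425492_at and from -0.11 to 0.10 for Smad3. For Acvr1c and Tgfbr1 they ran from -0.079 to 0.74 and from -0.11 to 0.032. The cause of these changes was not tested.

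With the replicate block the Dmrt1 difference was -4.72 at a limma adjusted p of 0.200, and 0 probe sets were called in place of 6. Deviations from the group mean had correlations of -0.59, -0.34 and 0.15 between arrays of the same number, for replicates 1, 2 and 3. Between arrays of different numbers they ran from -0.40 to 0.58. Such deviations sum to 0 within each group of 3 arrays, so these correlations cannot decide whether the number pairs the samples. The block leaves fewer degrees of freedom. Without the intensity trend 1 probe set was called. Leaving out single arrays gave 0 to 4 called probe sets and a Dmrt1 difference of -5.03 to -4.52.

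The half-width of the 95% confidence interval ran from 0.13 to 0.74 over the 17 tested probe sets, with a median of 0.30. These intervals are not adjusted for the number of tests, and that of Bmpr1a 1425493_at, around -0.25, left out 0 although the probe set was not called after adjustment.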

Other observations

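The genes whose levels over the 6 arrays were most like those of the 3 most variable members are given as a description, ranked by Pearson r among 19981 tested probe sets of other genes. For Inha they were Tgm2, a transglutaminase, at 0.997, Alas1, which makes the first intermediate of heme, at 0.993, Abca4 at 0.992, and Tubb2a and Zfp759 at 0.991 each. For Inhba they were Endod1 at 0.994, Lnx1 at 0.993, Clcn4 and Cog6 at 0.989 and Fam168a at 0.988, all of them lowest in null replicate 3. Endod1, for example, had 593, 592 and 596 in the controls and 594, 535 and 438 in the nulls. For Acvr2b they were Etfb at 0.997, Dpp4 at 0.994, Tmem135 and Mtdh at 0.991 and Wipi2 at 0.985.

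Probe sets of 1 gene did not always give the same difference. In all 4 member genes with several tested probe sets, the dimmer ones had a lower difference than the brightest, by 0.19 for Acvr2a, 0.18 for Bmpr1a, 0.08 for Smad4 and 0.34 for Smad7 on the log2 scale. The same held for 58.3% of 5091 genes with several tested probe sets, with a median of -0.03. Per array, the median level of the dimmer relative to the brightest over those 5091 genes was 0.03, 0.03 and -0.01 in the controls and 0.01, 0.03 and -0.08 in the nulls. The lowest was null replicate 3, the array with the highest ratio of 3′ to 5′ Actb signal. Among the members it was also the lowest for Bmpr1a (-0.16), Smad4 (-0.18) and Smad7 (-0.56). For Acvr2a the lowest was null replicate 1, at -0.18, an array with an Actb ratio of 1.96. The part of RNA quality in the dimmer Bmpr1a, Smad7 and Acvr2a values was not tested.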
